A study of Mus musculus with 6 samples.

Results

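The matrix that fibroblasts secrete around themselves holds, beside its collagens, adhesive glycoproteins, elastic fibre and microfibril proteins, proteoglycans, basement membrane proteins and the enzymes that crosslink the fibres. A list of 48 genes of these kinds was followed in NIH3T3 cells, an immortalized line of mouse embryonic fibroblasts (Normal cells). Every gene on the list that had a probe set paired with exactly 1 gene symbol was taken, which gave 39 of the 48 genes and 40 probe sets, out of 16797 genes measured. No such probe set was found for fibrillin-1 (Fbn1), fibulin-4 (Efemp2), Mfap2, decorin (Dcn), asporin (Aspn), Lox, Loxl2, perlecan (Hspg2) and osteopontin (Spp1), and these 9 genes are not described further.

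Total RNA was hybridised to 6 Affymetrix gene arrays in 2 groups. The 3 N arrays were of Normal cells grown for 72 h without forskolin (FSK), and the 3 NF arrays were of Normal cells grown for 72 h with 10 μM FSK, added at 24 h and again at 48 h. All cells were plated in 25 mM glucose and after 16 h received medium with 1 mM glucose, so low glucose was shared by both groups. By their labels the 3 samples of a group are biological replicates. The labels of the arrays name 1 cell line and no vehicle for the N cells. For the same FSK schedule, the study's figure legends name DMSO as the vehicle. They include those for qPCR of Normal cells at 72 h and for its arrays of K-Ras-transformed NIH3T3 cells. FSK activates adenylate cyclase and so raises cAMP and the activity of PKA.

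Matrix glycoproteins such as fibronectin and the thrombospondins bind cell surface receptors and growth factors, and versican, a large chondroitin sulphate proteoglycan, forms hydrated complexes with hyaluronan around cells. Elastin is laid down on microfibrils and is crosslinked by lysyl oxidases. Syndecans are transmembrane heparan sulphate proteoglycans that tie the matrix to the cytoskeleton. In fibroblasts cAMP is known to act partly through the transcription factor CREB, which binds the cAMP response element (CRE).

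All levels below are log2 expression values of single probe sets, and all changes are NF minus N on the log2 scale. A gene was called when the adjusted p of limma, with Benjamini-Hochberg adjustment over all probe sets tested, was under 0.05, and "rose" and "fell" refer only to such genes. Probe sets with a mean over the 6 arrays below 3.7, the median over all probe sets, are called dim, and 10 of the 39 genes had a dim probe set. Of the N arrays, N replicate 1 stood apart. Its values had an SD of 2.194 against 2.373 to 2.419 in the other arrays, and over 5189 probe sets with a mean between 5 and 8 its median difference from the other N arrays was -0.493, while the same difference of the remaining arrays, each from the others of its group, lay between -0.0529 and 0.359. It was the lowest N array for 27 of the 39 matrix genes (69.2%) and for 45.2% of all genes. Among probe sets that were not dim, the shares were 79.3% of 29 matrix genes and 73.2% of all genes. The main results are therefore also given without this array, which leaves N with 2 arrays.

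The arrays showed the defining genes of fibroblasts. The mean of 9 fibroblast markers lay between 8.31 and 9.02 in N and between 9.04 and 9.25 in NF, and none of the 9 was dim. All 9 had a higher mean in NF, with a median change of 0.30, or 0.10 without N replicate 1. Of these markers, limma called Col3a1, which rose by 1.33 (limma, adjusted p = 0.0157). Epithelial markers were dim in 5 of 6 cases (list mean 3.05 to 3.32 in N and 3.00 to 3.11 in NF), and chondrocyte and osteoblast markers in 3 of 5 (4.25 to 4.54 and 4.33 to 4.41). In the latter list Sox9 was bright, with means of 9.79 in N and 9.56 in NF. Col2a1 was not dim either, with means of 4.18 and 4.15. All 6 endothelial markers, the 4 leukocyte markers measured and the 3 adipocyte markers measured were dim. The mean of the 5 smooth muscle and contractile markers lay between 4.81 and 5.11 in N and between 4.37 and 4.52 in NF, with Acta2, the actin of contractile fibroblasts, falling by 1.56 (limma, adjusted p = 0.00843) and Myh11, Des and Cnn1 dim. The part of this shift in the matrix results was not tested. In RNA of whole cultures, fewer cells of one kind and less RNA per cell cannot be told apart.

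Of the 39 matrix genes, 3 rose with FSK (7.69%, against 1.83% of all genes), and these were versican (Vcan), Tgfbi and syndecan-4 (Sdc4). Elastin (Eln) was the 1 gene that fell (2.56%, against 0.720% of all genes). At an unadjusted p under 0.05, limma had 10 genes higher (25.6%, against 8.33% of all genes) and 4 lower (10.3%, against 5.49%). All 3 NF arrays lay above all 3 N arrays in 13 genes (33.3%, against 10.5% of all genes) and below them in 3 (7.69%, against 9.70%). A change of 1 or more in size, a 2-fold difference that carries no test, was seen in 6 genes (15.4%, against 2.74%). The median change was 0.30 over the 39 genes and -0.03 over all genes, and among probe sets that were not dim it was 0.40 over 29 matrix genes and 0.09 over 8269 genes. Dim probe sets were less frequent among the matrix genes (10 of 39) than among all genes (8528 of 16797). Of the genes not dim, 3 of 29 matrix genes rose and 1 fell, against 296 and 119 of 8269 genes. At an unadjusted p under 0.05, 9 were higher and 4 lower, against 1285 and 740. The NF arrays lay above the N arrays in 12 and below them in 3, against 1520 and 846. A change of 1 or more was seen in 6, against 450.

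Without N replicate 1, 6 matrix genes were higher (15.4%, against 2.93% of all genes), namely Vcan, Tgfbi, Sdc4, Lama4, Thbs2 and Sdc1. Another 4 were lower (10.3%, against 2.56%), namely Eln, Mfap5, Mgp and Loxl4. The median change over the 39 genes was then 0.14, and over all genes -0.02. The call of a single gene depended on the arrays used. Without NF replicate 1 or without NF replicate 3, no matrix gene passed limma's test in either direction, while some had an unadjusted p under 0.05. Without NF replicate 1 these were 8 higher (20.5%, against 5.66% of all genes) and 3 lower (7.69%, against 3.22%), and without NF replicate 3 they were 9 higher (23.1%, against 5.60%) and 3 lower (7.69%, against 3.61%). Over all genes, 1 gene passed the adjusted test without NF replicate 1 and 2 passed without NF replicate 3.

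**Figure D1:**
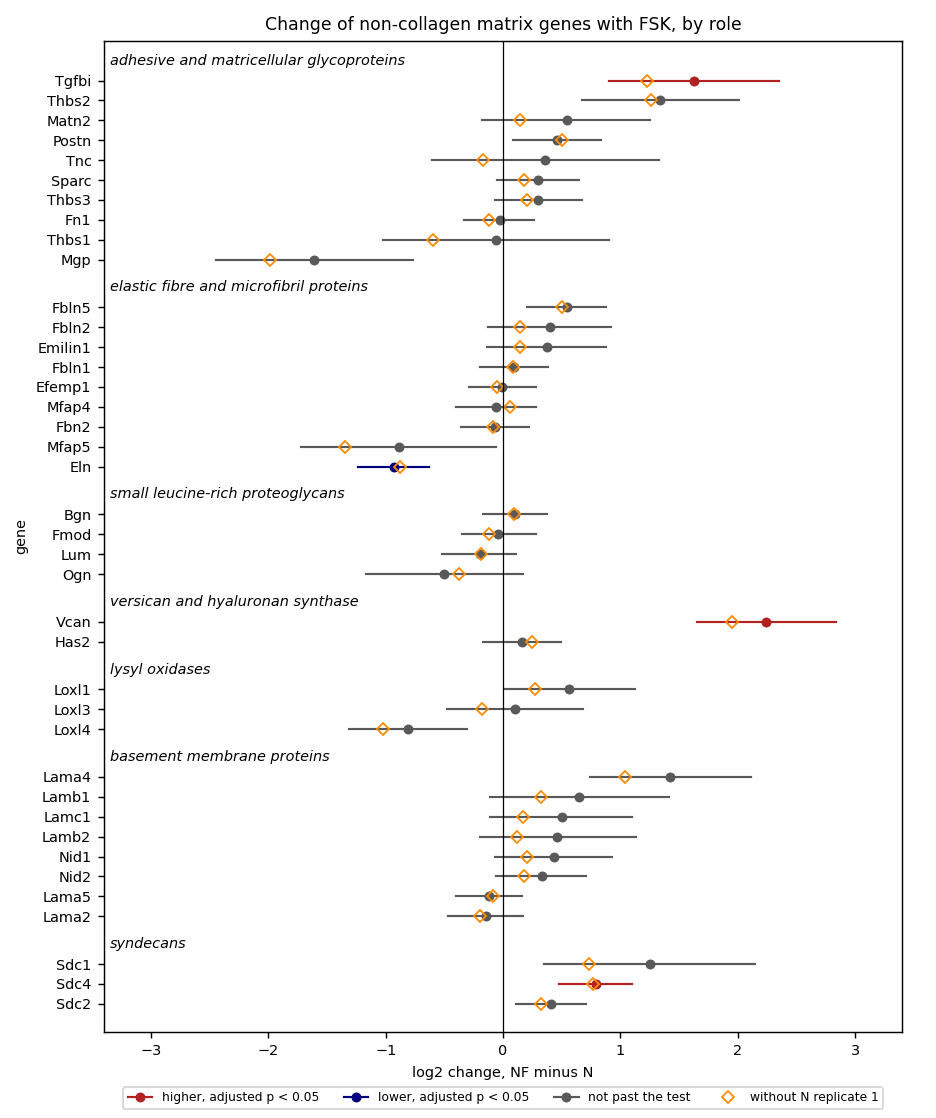
Log2 change (NF minus N, horizontal axis) of each of the 39 matrix genes, grouped by role. Dots are differences of group means over 3 and 3 arrays, bars their 95% confidence intervals from limma, and open diamonds the change without N replicate 1. Vcan, Tgfbi and Sdc4 were higher at an adjusted p under 0.05, Eln was lower, and most basement membrane genes moved towards 0 when N replicate 1 was left out.

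The 250 bases before the transcription start of the 3 genes that rose are shown, because cAMP is known to act through CREB, whose element can be looked for there. The sequences are from RefSeq on the build GRCm38.p6 and run 5′ to 3′ on the strand of the gene. Vcan lies at chr13:89742513-89742762 on the minus strand, Tgfbi at chr13:56609336-56609585 on the plus strand and Sdc4 at chr2:164443189-164443438 on the minus strand. Capitals mark GC boxes (GGGCGG, or CCGCCC on the other strand) and the CCAAT box (CCAAT, or ATTGG on the other strand).
Vcan promoter: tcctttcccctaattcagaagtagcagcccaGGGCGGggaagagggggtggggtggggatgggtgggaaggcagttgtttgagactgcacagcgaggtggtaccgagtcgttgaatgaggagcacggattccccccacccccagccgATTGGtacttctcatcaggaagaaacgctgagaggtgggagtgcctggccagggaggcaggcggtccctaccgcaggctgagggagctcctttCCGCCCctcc
Tgfbi promoter: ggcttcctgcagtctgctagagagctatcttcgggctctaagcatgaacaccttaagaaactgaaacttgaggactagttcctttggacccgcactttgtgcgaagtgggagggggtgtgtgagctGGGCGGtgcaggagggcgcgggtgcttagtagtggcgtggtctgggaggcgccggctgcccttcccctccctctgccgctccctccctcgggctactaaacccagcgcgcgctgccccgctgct
Sdc4 promoter: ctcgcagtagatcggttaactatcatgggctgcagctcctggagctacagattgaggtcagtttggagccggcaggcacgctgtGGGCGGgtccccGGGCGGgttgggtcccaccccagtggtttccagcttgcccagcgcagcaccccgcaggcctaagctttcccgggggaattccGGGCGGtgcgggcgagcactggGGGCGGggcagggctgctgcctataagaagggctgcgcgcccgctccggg

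Vcan held 2 GC boxes and 1 CCAAT box, Tgfbi 1 GC box and Sdc4 4 GC boxes. None of the 3 held the CRE (TGACGTCA), its core (TGACG, or CGTCA on the other strand, which the CRE contains) or a TATA box (TATAAA, or TTTATA). A promoter was listed for 23 of the 39 genes, 27 promoters in all, and Eln, Lama4 and Mgp were not among them. The CRE was in 0 of the 27 and in 1.55% of 32851 mouse promoters of the same length. The core was in 4 of the 27 (14.8%, against 17.8%), which belong to Fbln5, Lama5 and Loxl4. GC boxes were in 59.3% against 32.7%, CCAAT boxes in 25.9% against 33.8% and TATA boxes in 18.5% against 12.4%. A match or its absence describes only the letters of these windows.

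Among the adhesive and matricellular glycoproteins, 10 genes were measured, of which 1 rose and 0 fell. Tgfbi, which encodes a secreted adhesion protein induced by TGF-β that binds integrins and collagen, was 7.09, 8.33 and 8.23 in N replicates 1 to 3 and 9.58, 9.30 and 9.65 in NF replicates 1 to 3. All NF arrays lay above all N arrays, and N replicate 1 was the lowest by a wide margin. The mean rose from 7.88 ± 0.69 to 9.51 ± 0.19 (SD, n = 3 each), a change of 1.63 or 3.09-fold (SE 0.31, limma, adjusted p = 0.0425). Without N replicate 1 the change was 1.23 (limma, adjusted p = 0.00267), and the call was lost without N replicate 3 (adjusted p = 0.0707), NF replicate 1 (0.216), NF replicate 2 (0.0851) or NF replicate 3 (0.224).

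Thrombospondin-2 (Thbs2), a matricellular protein known to restrain angiogenesis and to shape collagen fibrils, was 6.43, 6.91 and 6.41 in N and 7.83, 8.57 and 7.39 in NF. The groups did not overlap, and NF replicate 2 was the highest array. The change of 1.34 (2.53-fold, SE 0.29) missed the threshold (limma, adjusted p = 0.0615) and passed it without N replicate 1 (1.26, adjusted p = 0.0494). Its relatives gave other values. Thrombospondin-1 (Thbs1), an activator of latent TGF-β, was 5.49, 7.42 and 6.76 in N and 6.49, 6.49 and 6.51 in NF, so the N arrays lay on both sides of the NF arrays. Its change was -0.06 (95% confidence interval -1.02 to 0.90), and -0.60 without N replicate 1 (limma, adjusted p = 0.116). Thrombospondin-3 (Thbs3) had a change of 0.30 (-0.07 to 0.67). The family members Thbs4 and Comp, which are not on the list, had dim probe sets. Whether the 3 thrombospondins differed in their response was not tested.

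Matrix Gla protein (Mgp), a secreted inhibitor of calcification, was 6.57, 7.90 and 7.53 in N and 5.34, 6.28 and 5.55 in NF. The highest NF array lay below the lowest N array, which was N replicate 1. The change was -1.61, a 3.05-fold lower level, with an SE of 0.36, and missed the threshold (limma, adjusted p = 0.0681). It was -1.99 without N replicate 1 (limma, adjusted p = 0.00410).

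The other glycoproteins of this kind did not pass the test. Fibronectin (Fn1), the main adhesive protein of the fibroblast matrix, had a mean of 12.57 ± 0.14 in N and 12.53 ± 0.02 in NF (SD, n = 3 each), with an interval of the change from -0.33 to 0.26. Sparc, a collagen-binding glycoprotein, had a change of 0.30 (-0.05 to 0.65), and its NF arrays reached from 11.81 to 11.95 against 11.35 to 11.81 in N, with NF replicate 2 just above N replicate 2. Tenascin-C (Tnc), a matricellular protein of wounds, had a change of 0.36 (-0.61 to 1.33) that turned to -0.17 without N replicate 1. Matrilin-2 (Matn2), a filament-forming adaptor protein, had a change of 0.54 (-0.18 to 1.25), which was 0.14 without N replicate 1. The probe set of periostin (Postn), a matricellular protein of collagen-rich tissues, was dim, with a change of 0.46 (0.08 to 0.83, limma, adjusted p = 0.254).

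**Figure D2:**
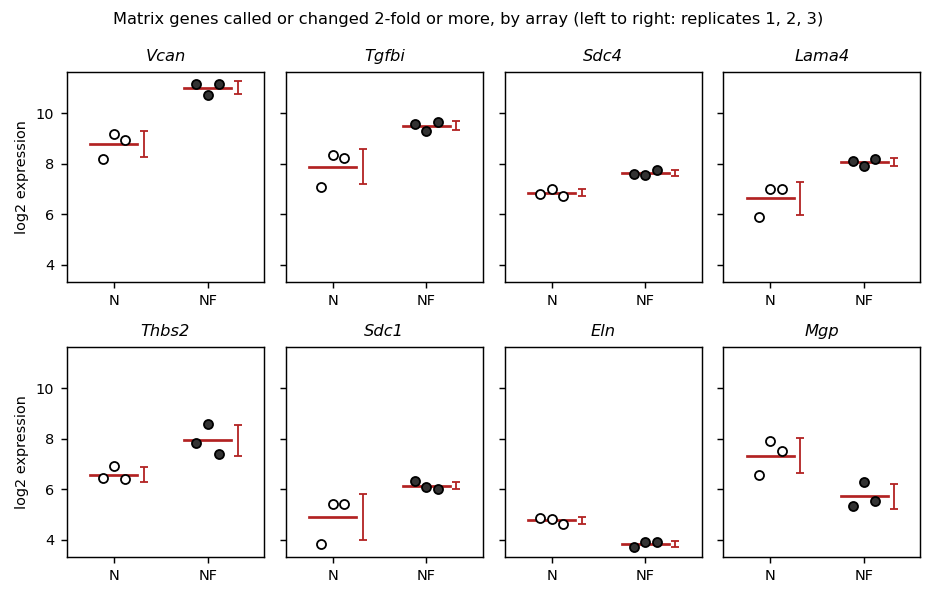
Log2 expression (vertical axis) of the 8 matrix genes that passed the test or changed 2-fold or more, by group. Open circles are N arrays and filled circles NF arrays, from left to right replicates 1 to 3, with lines for group means and bars for ± 1 SD (n = 3). The groups do not overlap in any of the 8 genes, and N replicate 1 lies below the other N arrays in Vcan, Tgfbi, Lama4, Sdc1 and Mgp.

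Of the elastic fibre and microfibril genes on the list 9 were measured, of which 0 rose and 1 fell. Elastin (Eln), the core protein of elastic fibres, was 4.88, 4.81 and 4.63 in N and 3.71, 3.90 and 3.91 in NF. Every NF array lay below every N array, and N replicate 1 did not stand apart here. The mean fell from 4.77 ± 0.13 to 3.84 ± 0.12 (SD, n = 3 each), a change of -0.93 or 1.91-fold lower (SE 0.13, limma, adjusted p = 0.0166). The NF mean was close to the dim bound, where fold changes of arrays are compressed. The change was -0.88 without N replicate 1 (limma, adjusted p = 0.00803), and the call was lost without NF replicate 1 (adjusted p = 0.121) or without NF replicate 3 (adjusted p = 0.113).

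Microfibril-associated protein 5 (Mfap5) was 5.20, 6.57 and 6.59 in N and 4.92, 5.33 and 5.43 in NF. N replicate 1 lay among the NF arrays, while the other N arrays lay above all of them. The change of -0.89 did not pass the test (interval -1.72 to -0.06, limma, adjusted p = 0.336) and was -1.35 without N replicate 1 (limma, adjusted p = 0.00329), so that 1 array decided the call. Fibulin-5 (Fbln5), which guides elastin onto microfibrils, was 9.45, 9.71 and 9.42 in N and 10.15, 9.86 and 10.19 in NF. Its groups did not overlap, in the direction opposite to elastin, and its change of 0.54 did not pass the test (interval 0.20 to 0.88, limma, adjusted p = 0.132).

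The remaining elastic fibre genes did not pass either. Fibulin-2 (Fbln2), a fibulin of microfibrils and basement membranes, had a change of 0.40 (-0.13 to 0.92), and Emilin1, a glycoprotein at the border of elastin and microfibrils, one of 0.37 (-0.14 to 0.88). Both were 0.14 without N replicate 1. Fibulin-3 (Efemp1) had a mean of 12.20 in N and 12.19 in NF, with an interval of the change from -0.29 to 0.28. Fibrillin-2 (Fbn2), fibulin-1 (Fbln1) and Mfap4 had dim probe sets and changes between -0.07 and 0.09.

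Small leucine-rich proteoglycans bind collagen fibrils and set their width. Of the 4 on the list that were measured, limma called 0, and 0 had an unadjusted p under 0.05. Biglycan (Bgn) was 12.33, 12.32 and 12.39 in N and 12.41, 12.41 and 12.52 in NF, so that the groups did not overlap although the change was only 0.10 (interval -0.17 to 0.37). Osteoglycin (Ogn) had a mean of 5.61 ± 0.62 in N and 5.11 ± 0.21 in NF (SD, n = 3 each). Its groups overlapped, and its change was -0.50 (interval -1.17 to 0.17). Lumican (Lum) and fibromodulin (Fmod) had dim probe sets. Genes of this family lie in clusters in the genome, and their neighbours were looked at as well. Of these, Prelp, a proteoglycan that anchors basement membranes to collagen and lies near Fmod, was 8.63, 9.07 and 9.17 in N and 7.37, 7.50 and 7.40 in NF, and it fell by 1.54 (SE 0.17, limma, adjusted p = 0.00843). Kera, Omd, Ecm2 and Optc had dim probe sets, and no probe set of 1 symbol was found for Epyc.

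The change of versican was larger than that of any other of the 39 genes. Vcan was 8.20, 9.19 and 8.92 in N and 11.15, 10.73 and 11.15 in NF. The lowest NF array lay well above the highest N array, and N replicate 1 was again the lowest N array. The mean rose from 8.77 ± 0.52 to 11.01 ± 0.24 (SD, n = 3 each), a change of 2.24 or 4.73-fold (SE 0.26, interval 1.65 to 2.84, limma, adjusted p = 0.00939). It was 1.95 without N replicate 1 (limma, adjusted p = 0.00117), and over the alternatives tried it lay between 1.95 and 2.45. Its call was lost without NF replicate 1 (limma, adjusted p = 0.0796) or NF replicate 3 (adjusted p = 0.0918).

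Hyaluronan is the polymer to which versican binds. The probe set of hyaluronan synthase 2 (Has2), the main synthase of fibroblasts, was dim, with 3.56, 3.44 and 3.16 in N and 3.57, 3.59 and 3.49 in NF, and its change of 0.16 did not pass the test (interval -0.17 to 0.49). Has1 and Has3 were dim too. Of the 16 other genes of hyaluronan synthesis, binding and breakdown, 2 rose (12.5%, against 1.83% of all genes) and 0 fell (against 0.720%). Tnfaip6 (TSG-6), a secreted protein that binds hyaluronan and modifies it with heavy chains of inter-α-inhibitor, was 5.02, 4.90 and 4.78 in N and 6.54, 6.60 and 6.74 in NF. It rose by 1.72 (SE 0.13, limma, adjusted p = 0.00545), with no overlap and with a spread within each group far below the difference. Hmmr, a hyaluronan-binding protein that also works at the mitotic spindle, rose from 3.13 ± 0.28 to 4.43 ± 0.16 (SD, n = 3 each; limma, adjusted p = 0.0139). Its N arrays (3.05, 3.43 and 2.90) lay below the dim bound of 3.7, where levels are poorly measured. Cd44, the main hyaluronan receptor, had a change of -0.12 (limma, adjusted p = 0.817) with overlapping groups.

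**Figure D3:**
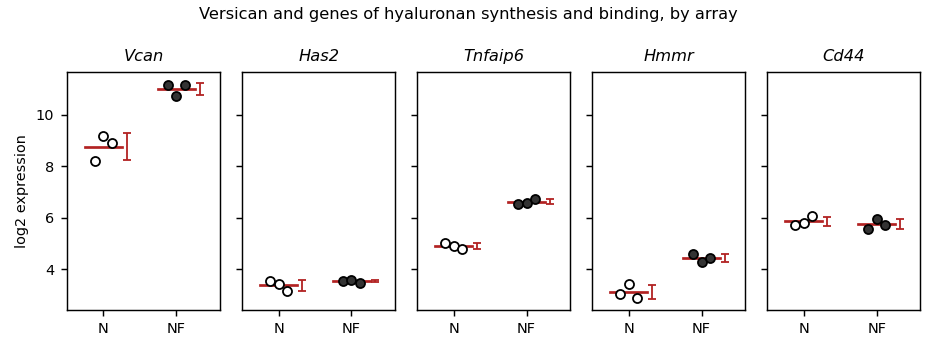
Log2 expression (vertical axis) of versican and of 4 genes of hyaluronan synthesis and binding, by group. Open circles are N arrays and filled circles NF arrays, from left to right replicates 1 to 3, with lines for group means and bars for ± 1 SD (n = 3). Vcan, Tnfaip6 and Hmmr were higher in every NF array, and Has2 and Cd44 overlapped.

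Lysyl oxidases make the aldehydes from which collagen and elastin crosslinks form. Of the family, 3 genes were measured, and limma called 0 of them, with 1 higher and 1 lower at an unadjusted p under 0.05. Loxl1, the enzyme tied to elastic fibre renewal, was 5.96, 6.84 and 6.82 in N and 7.19, 7.15 and 6.95 in NF, a change of 0.56 (0.01 to 1.12, limma, adjusted p = 0.363) that was 0.27 without N replicate 1. Loxl4 was 5.30, 6.02 and 5.86 in N and 5.20, 4.81 and 4.74 in NF, and the groups lay apart by the small gap between N replicate 1 and NF replicate 1. Its change was -0.81 (-1.31 to -0.31, limma, adjusted p = 0.119), and without N replicate 1 it was -1.02 (limma, adjusted p = 0.0103). A second probe set of Loxl4 had a change of -0.73 (SE 0.35, limma, adjusted p = 0.440). Loxl3 had a change of 0.10 (-0.48 to 0.68), which turned to -0.18 without N replicate 1 and to -0.02 after quantile normalization. Differences between the 3 enzymes were not tested.

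The 8 basement membrane genes of the list encode chains of laminin, the trimer on which basement membranes are built, and the nidogens that link laminin to the rest of the sheet. None of the 8 passed limma's test, with 1 higher and 0 lower at an unadjusted p under 0.05. That gene was laminin α4 (Lama4), a chain of vessels and mesenchyme, with 5.88, 7.02 and 7.02 in N and 8.11, 7.90 and 8.18 in NF. The groups did not overlap, and N replicate 1 lay far below the other N arrays. Its change was 1.42, or 2.68-fold (SE 0.30, limma, adjusted p = 0.0531), and 1.04 without N replicate 1 (limma, adjusted p = 0.00394).

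The chains that join α4 in its trimers did not pass the test, and their difference from Lama4 was not tested. Laminin β1 (Lamb1) had a change of 0.65 (-0.11 to 1.41), laminin β2 (Lamb2) one of 0.46 (-0.20 to 1.13) and laminin γ1 (Lamc1) one of 0.50 (-0.11 to 1.10). Without N replicate 1 these were 0.32, 0.12 and 0.17. Lamc1 shows the pattern, with values of 7.35, 8.31 and 8.35 in N and 8.65, 8.44 and 8.41 in NF. The nidogens had changes of 0.43 (Nid1, -0.07 to 0.93) and 0.33 (Nid2, dim, -0.06 to 0.71), and the probe sets of the laminin chains α2 (Lama2) and α5 (Lama5) were dim, with changes of -0.15 and -0.12. The median change of the 8 genes was 0.45, and 0.18 without N replicate 1. In 7 of the 8, N replicate 1 was the lowest N array.

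The 3 syndecans on the list (Sdc1, Sdc2 and Sdc4) had every NF array above every N array, and each had an unadjusted p under 0.05, while 1 passed the adjusted test. Of all genes, 10.5% had NF above N and 8.33% were higher at that p. Among the 8269 genes that were not dim, like these 3, the counts were 1520 and 1285. Syndecan-3 (Sdc3), which is not on the list but was measured, was 4.11, 4.66 and 4.43 in N and 4.64, 5.42 and 4.44 in NF. Its groups overlapped, and its change of 0.43 did not pass (limma, adjusted p = 0.562). For the 3 syndecans on the list the direction was the same after quantile normalization, after centring on the median and without N replicate 1. Syndecan-4 (Sdc4), the syndecan of focal adhesions, was 6.81, 7.0 and 6.73 in N and 7.60, 7.54 and 7.76 in NF. The spread within each group was small, and N replicate 1 lay between the other N arrays. The mean rose from 6.85 ± 0.14 to 7.64 ± 0.11 (SD, n = 3 each), a change of 0.79 or 1.73-fold (SE 0.13, limma, adjusted p = 0.0295). It was 0.77 without N replicate 1 (limma, adjusted p = 0.0166). The adjusted p was above the threshold after quantile normalization (0.0564), with limma's trend and robust options (0.0636) and without any one of N replicate 3 and the NF arrays (0.0690 to 0.177), while the change itself stayed between 0.69 and 0.87.

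Syndecan-1 (Sdc1), best known from epithelia and plasma cells, was 3.85, 5.40 and 5.43 in N and 6.31, 6.09 and 6.03 in NF. N replicate 1 lay more than 1 unit below the other N arrays. The change was 1.25, or 2.37-fold (SE 0.39, limma, adjusted p = 0.188), and it was 0.73 without N replicate 1 (adjusted p = 0.0173). Syndecan-2 (Sdc2), a syndecan of mesenchymal cells, was 8.47, 8.71 and 8.74 in N and 9.01, 9.09 and 9.04 in NF, a change of 0.41 that did not pass the test (0.11 to 0.71, limma, adjusted p = 0.194). Its change was 0.32 without N replicate 1 (adjusted p = 0.187). Differences between the syndecans were not tested.

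**Figure D4:**
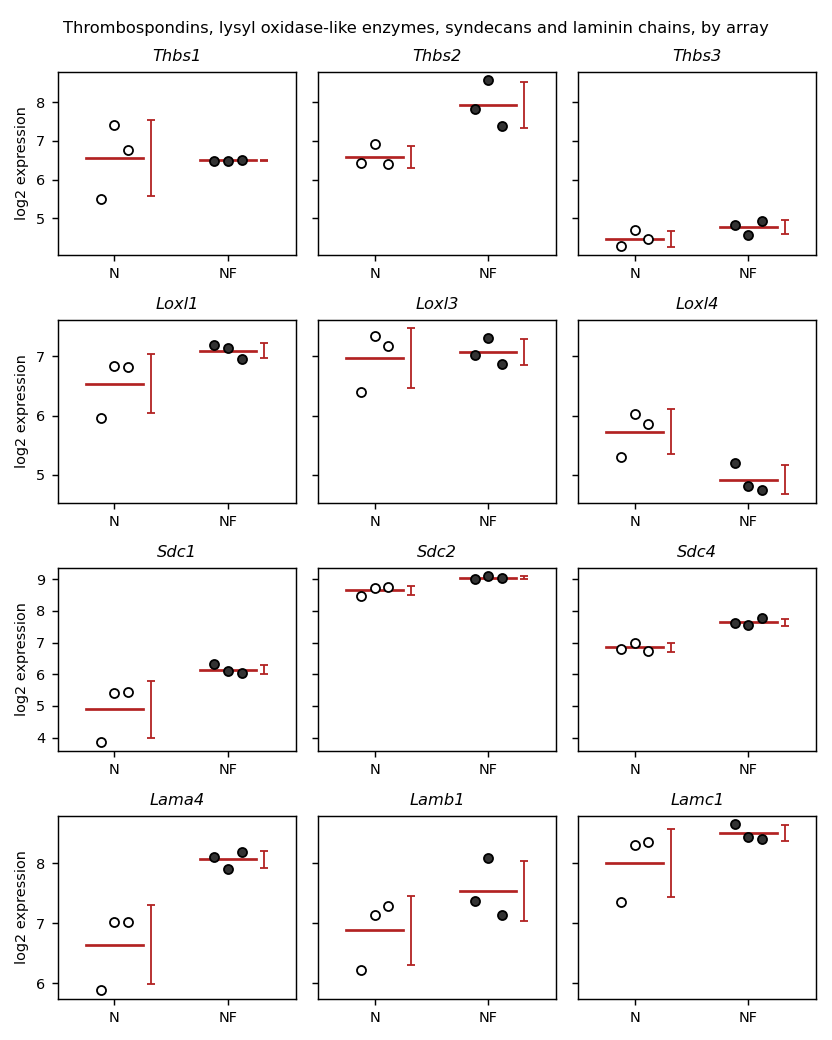
Log2 expression (vertical axis, 1 scale per row) of 3 thrombospondins, 3 lysyl oxidase-like enzymes, 3 syndecans and 3 laminin chains, by group. Open circles are N arrays and filled circles NF arrays, from left to right replicates 1 to 3, with lines for group means and bars for ± 1 SD (n = 3). Every NF array lies above every N array in Thbs2, Loxl1, the 3 syndecans, Lama4 and Lamc1, below in Loxl4, and the groups overlap in Thbs1, Thbs3, Loxl3 and Lamb1.

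The roles were also set side by side by array, with no test between them. For each gene the deviation of an array from the mean over the 6 arrays was taken and averaged over the genes of a role. The deviation of N replicate 1 over all 39 genes was -0.48, and those of the other N arrays were 0.10 and -0.01, against 0.11 to 0.15 in the NF arrays. In the 3 listed syndecans, without Sdc3, and in the mean of versican and Has2, each of the N arrays lay below each of the NF arrays. Has2 itself was dim and its groups overlapped, with a change of 0.16 against 2.24 in Vcan. In the lysyl oxidases and the elastic fibre genes the other N arrays lay above the NF arrays, with N replicate 1 below them.

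**Figure D5:**
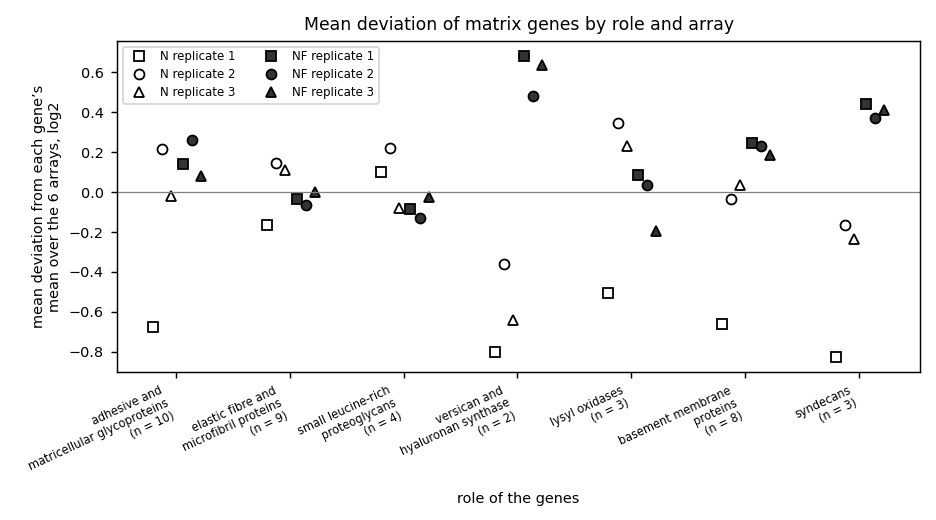
Mean deviation of the genes of each role from their own mean over the 6 arrays (vertical axis, log2), by array. Open symbols are N arrays and filled symbols NF arrays, with squares, circles and triangles for replicates 1 to 3, and n is the number of genes in a role. N replicate 1 (open square) is the lowest array in 6 of the 7 roles, the small leucine-rich proteoglycans being the other.

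The rest of the matrix machinery was examined in 138 other genes, of which 5 rose (3.62%, against 1.83% of all genes) and 2 fell (1.45%, against 0.720%). At an unadjusted p under 0.05, limma had 23 of them higher (16.7%, against 8.33%) and 10 lower (7.25%, against 5.49%). Without N replicate 1, 9 were higher (6.52%, against 2.93%) and 7 lower (5.07%, against 2.56%). Without NF replicate 1 or NF replicate 3, limma called 0, and at an unadjusted p under 0.05 it had 16 and 19 higher genes and 5 and 6 lower ones. Their median change was -0.0032. Of 59 further glycoproteins and proteoglycans 3 rose (5.08%) and 2 fell (3.39%). Ecm1, a glycoprotein of skin and vessel matrix, rose from 8.48 ± 0.15 to 9.78 ± 0.16 (SD, n = 3 each; limma, adjusted p = 0.00843). Of the CCN family of matricellular proteins, Ccn5 rose by 1.30 (limma, adjusted p = 0.0318) and Ccn4, a target of Wnt signalling, fell by 1.75 (limma, adjusted p = 0.0132). Ccn1 had a larger change of -1.98 that did not pass (limma, adjusted p = 0.0767). It was -2.39 without N replicate 1 (limma, adjusted p = 0.0105). Ccn2 and the dim Ccn3 had changes of 0.13 and 0.20 with overlapping groups. Dermatopontin (Dpt), which binds decorin and collagen, had a dim probe set and rose by 1.39 (limma, adjusted p = 0.0219), and Prelp is the other gene that fell. Without N replicate 1, 4 of the 59 were higher (6.78%, against 2.93% of all genes) and 4 lower (6.78%, against 2.56%). Ltbp1 (change 1.10) was then also higher, and Ccn1 and Cspg4 (-1.22) were also lower. With all arrays the changes of Ltbp1 and Cspg4 were 1.52 and -0.70 (limma, adjusted p = 0.0530 and 0.589), and the groups of Cspg4 overlapped.

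Versican and the syndecans carry sugar chains, and 36 genes for the synthesis of such chains were measured. Limma called 0 of them, with 10 higher (27.8%, against 8.33% of all genes) and 3 lower (8.33%, against 5.49%) at an unadjusted p under 0.05. Of the 36 genes 25 were not dim, against 8269 of all 16797 genes. The 10 higher and the 3 lower genes were all among these 25. Among those 8269 genes, 1285 were higher and 740 lower at that p. The median change of the 36 genes was 0.13, or 0.04 without N replicate 1. Without that array 2 were higher, the chondroitin sulphotransferases Chst11 (change 1.01, adjusted p = 0.0166) and Chst12 (1.06, adjusted p = 0.0139), and 2 were lower, Extl1 (-1.30, adjusted p = 0.0178) and Papss2 (-0.94, adjusted p = 0.0105), which makes the sulphate donor. Their changes with all arrays were 1.32, 1.49, -1.10 and -0.73, in that order, and none of these was called. Of the 27 genes for proteases of the ADAMTS family and other matrix processing, limma called 0, with 4 higher (14.8%, against 8.33%) and 2 lower (7.41%, against 5.49%) at an unadjusted p under 0.05. Without N replicate 1, Adamts7 was higher (change 0.78, adjusted p = 0.0102) and the versican- and aggrecan-cleaving protease Adamts5 was lower (-1.0, adjusted p = 0.00643). With all arrays the changes of Adamts7 and Adamts5 were 1.07 and -0.65 (limma, adjusted p = 0.0674 and 0.364), and the groups of Adamts5 overlapped.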

How the data were processed

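Arrays of N and NF cells were used (3 each). The authors deposited log2 expression values, computed by RMA with the Bioconductor package oligo. RMA subtracts background, gives the probe values of the arrays the same distribution and then combines probes by median polish. The probe set values tested here did not share 1 spread, with an SD of 2.194 in N replicate 1 and 2.373 to 2.419 in the other arrays. The authors removed probe sets without an Entrez gene. Which arrays were normalized together and the genome build are not given in the sources used here. Equalizing distributions can hide a shift shared by most genes. Of 22035 probe sets, the 18197 paired with 1 gene symbol were tested, and 1260 with several symbols and 2578 not listed or without a symbol were left out.

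The difference NF minus N was fitted with limma 3.58.1 (lmFit and eBayes, prior degrees of freedom 4) under R 4.3.3, with p-values adjusted over all probe sets tested. For genes with more than 1 probe set the lowest p decided which was used. Intervals are 95% confidence intervals from limma. Arrays carry no read depth, so their number limits the precision. The fit was also run on simulated data with independent noise and no array set apart. That run therefore does not bear on the effect of N replicate 1. The genes and lists were chosen with earlier results of these data known. Genes given in full were those with an adjusted p under 0.05 or a log2 change of 1 or more in size. Of the other lists, called genes were named, as were the genomic neighbours of the small leucine-rich proteoglycans. Other genes were given to show a family, the array that stood apart or a role, and were chosen after their values were seen. Alternatives were a replicate block, quantile normalization, centring on the median, removal of dim probe sets, the brightest probe set per gene, trend and robust estimation in limma, the methods' t-test and leaving out each array. Promoter sequences are from RefSeq, and motifs were searched as exact letters on both strands.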

Additional observations from a re-analysis of the deposited data

How the results depend on the processing

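The median change of the 39 matrix genes stayed positive under all alternatives (0.14 to 0.41). The counts did not stay. The number of matrix genes higher in NF, 3 in the fit as reported, was 1 with the replicate block (Vcan), 5 without dim probe sets, 8 by the methods' t-test at an unadjusted p under 0.05 and 0 after its adjustment, and 0 to 6 when 1 array was left out. The number lower, 1 as reported, was 3 after quantile normalization, 2 without dim probe sets, 2 with the trend and robust options, 3 by the t-test unadjusted and 0 adjusted, and 0 to 4 when 1 array was left out. With the replicate block it was 1, Mgp in place of Eln. Of the 138 other matrix genes, the 5 higher became 3 with the block, 10 after quantile normalization, 8 without dim probe sets, 8 with trend and robust options, 17 by the t-test unadjusted and 0 adjusted, and 0 to 9 when 1 array was left out, and the 2 lower became 1, 5, 3, 4, 9, 0, and 0 to 7. Replicate numbers did not pair the arrays (correlations of deviations of same-numbered arrays -0.0748, -0.0780 and -0.0736), and the block left 63 genes higher and 17 lower of all genes, against 307 and 121. The counts over all genes moved under the other alternatives too. They were 497 higher and 373 lower after quantile normalization, 359 and 148 without dim probe sets, and 322 and 128 with trend and robust options. By the t-test they were 1000 and 861 unadjusted and 1 and 0 adjusted. When 1 array was left out they ranged from 1 to 492 and from 0 to 430. Of 104 values of the 8 genes given in full, 69 kept their side of the threshold, 21 lost a call, 14 gained one, and none turned direction. Under the block Eln (adjusted p = 0.0750), Tgfbi (adjusted p = 0.0837) and Sdc4 (adjusted p = 0.101) lost their calls, while Lama4, Mgp and Thbs2 passed without dim probe sets (limma, adjusted p = 0.0304, 0.0365 and 0.0349). Leaving dim probe sets out moved the median change of all genes by 0.113. With 3 arrays a group and 1 N array apart, the causes of these differences were not tested. Changes of dim probe sets are poorly measured.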
